A study of Sus scrofa with 12 samples.

Results

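In the pig liver libraries described here, the 5 circular RNAs (circRNAs) with the highest mean back-splice count came from the genes NECTIN3, TUT7, HIBADH, PFKFB1 and GSTO1. These 5 hosts were chosen by that mean over all 12 libraries, so their abundance is a description and was not tested. All circRNAs listed under the same 5 symbols were taken, which gave 59 of the 24177 circRNAs in the deposited table, together with the 5 gene rows of the same symbols among 21169 gene rows. NECTIN3 had 20 circRNAs, TUT7 had 19, HIBADH had 11, PFKFB1 had 8 and GSTO1 had 1. The last member inside the rule was the GSTO1 circRNA with a mean of 283.1 counts, and the next circRNAs outside it came from ZMYND11 (271.8 counts), ITGA9 (244.6 counts) and PSD3 (240.8 counts).

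Liver RNA came from 12 pigs, 3 in each of 4 groups: Bama pigs kept at 23 ± 2 °C, Bama pigs kept at -15 ± 2 °C, Hezuo pigs kept at 23 ± 2 °C and Hezuo pigs kept at -15 ± 2 °C, all on day 15. No genetic change is stated for either breed, and the 23 °C pigs of each breed served as the study's controls in a search for genes and non-coding RNAs tied to cold resistance. The labels used here state no sex or age. RNA of the Y-linked gene DDX3Y was above 1 CPM (counts scaled to the same library total) in 8 libraries and not in 4. Those 4 were all 3 Bama libraries at room temperature and Bama cold replicate 2. At room temperature, breed and Y-linked RNA therefore divide the pigs in the same way and cannot be told apart. Bama pigs in the cold were the only group whose libraries differed in this RNA. Later estimates adjusted for it draw that adjustment from those 3 pigs alone.

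A circRNA forms when the end of an exon is joined backwards to the start of the same or an earlier exon, which closes the RNA into a ring without free ends. Such rings resist exonucleases and can accumulate to levels that the activity of the gene alone does not set. They are counted by reads that cross the back-splice junction. The 5 hosts have unrelated roles in the liver: NECTIN3 is a cell adhesion molecule of the junctions between epithelial cells, TUT7 adds uridines to the ends of RNAs and marks them for decay, HIBADH is the mitochondrial 3-hydroxyisobutyrate dehydrogenase of valine breakdown, PFKFB1 is the liver enzyme that makes and removes fructose 2,6-bisphosphate, and GSTO1 is a glutathione transferase of the omega class.

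The libraries held 20041285 to 30188037 gene counts and 39117 to 75616 back-splice counts each. The 59 circRNAs took 3.84% to 7.81% of the back-splice counts of a library, and the 5 leading circRNAs took 2.84% to 6.77%. All 10 hepatocyte markers examined were above 1 CPM, with a summed level from 47237 to 189185 CPM. That sum lay at 125282 to 142680 CPM in room-temperature Bama pigs, 47237 to 109951 in Bama pigs in the cold, 169886 to 189185 in Hezuo pigs at room temperature and 82645 to 157538 in Hezuo pigs in the cold. Summed markers of the other cell types reached 4161 CPM for stellate, 4562 for Kupffer, 1336 for endothelial, 62.8 for cholangiocyte, 215.0 for T and NK, 105.0 for B and plasma and 20942 for erythroid cells, and no marker found in the table was at 0 (KRT19 and STAB2 had no row). In bulk tissue, fewer cells of a type and less RNA per cell cannot be told apart.

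The leading circRNA of NECTIN3 spans chr13:148517273-148534946 on the minus strand and has a spliced length of 909 bases. That of TUT7 spans chr10:29037750-29038934 on the plus strand with 370 bases, that of HIBADH spans chr18:44996263-45011080 on the plus strand with 393 bases, and that of PFKFB1 spans chrX:47818210-47826089 on the minus strand with 541 bases. These 4 are made of annotated exons. The GSTO1 circRNA spans chr14:115195774-115213464 on the plus strand, is of the class of exons with introns and has a listed length of 11197 bases, longer than 99.99% of the exonic circRNAs. Exonic circRNAs hold no introns, and the length was not ranked within its own class. Exon-intron rings of other hosts were longer in part, such as those of 14948 bases (HIBADH) and 33317 bases (NECTIN3). Coordinates are those of the deposited table, whose genome build is not given in the sources used here. The median exonic circRNA was 567 bases long.

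Set against the gene positions of the RefSeq annotation of Sscrofa11.1, on the assumption that the deposited table uses that assembly, the leading circRNAs of NECTIN3, TUT7 (listed there as ZCCHC6), HIBADH and PFKFB1 began and ended inside their host. The GSTO1 circRNA did not: its last base fell in GSTO1, and its first base fell where RefSeq places CFAP43, a gene for a protein of cilia, and LOC100623931, the genes that precede GSTO1 on the chromosome. For comparison, 98.4% of 17265 exonic circRNAs and 87.5% of 1651 exon-intron circRNAs lay inside their named host. The GSTO1 ring is assigned to GSTO1 by the authors' table and touches neighbouring genes in this annotation.

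In 4 of the hosts a single ring held most of the back-splice counts of a family of rings. Hosts were chosen by the mean count of that ring, so a large share follows in part from the choice and was not tested. The leading circRNA made up 74.8% of all back-splice counts of NECTIN3, 72.5% of TUT7, 74.0% of HIBADH and 98.4% of PFKFB1, and the GSTO1 ring was the only one listed for its host. The median host had 2 circRNAs, and 34.5% of hosts had 1. Some rings had a splice site in common with the leading ring, and the counts that follow include the leading ring itself. Its upper end coordinate was shared by 8 of the 20 NECTIN3 rings, which held 96.3% of the counts of the host. The lower end of the leading ring was shared by 6 of the 11 HIBADH rings, with 98.5%, and 2 of the 19 TUT7 rings, with 86.0%. At the other end the shares were 77.1% (6 NECTIN3 rings), 74.8% (3 HIBADH rings) and 72.5% (the leading TUT7 ring alone). Rings with a shared site and a shared exon are not independent measurements of each other.

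**Figure D1:**
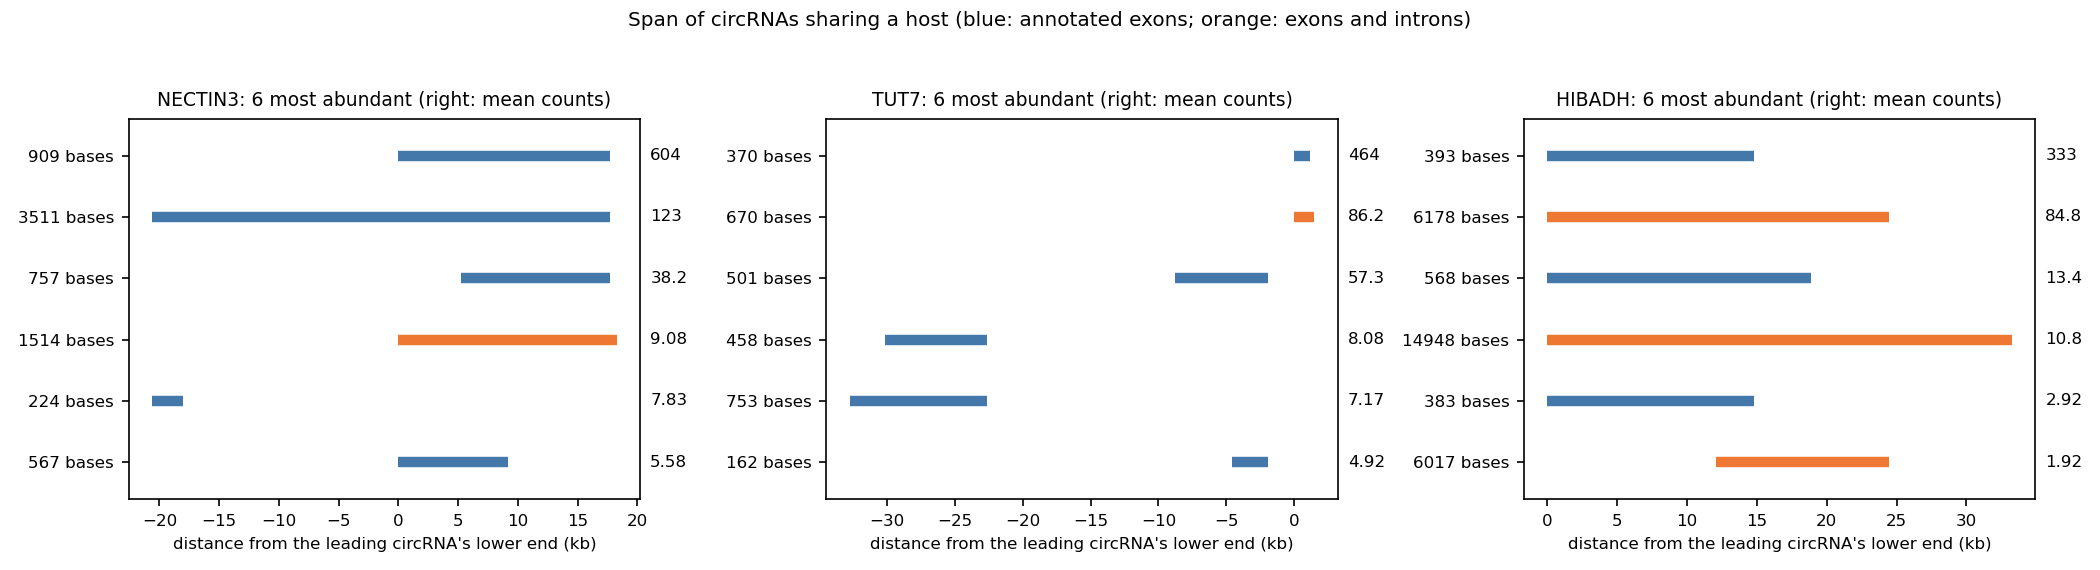
Spans of the 6 most abundant circRNAs (antisense ones left out) of NECTIN3, TUT7 and HIBADH. The x axis is the distance in kb from the lower end of the leading circRNA, each bar is 1 circRNA labelled with its spliced length in bases, and the number at the right is its mean back-splice count over 12 libraries. The 3 most abundant NECTIN3 rings end at one right-hand site, and the 4 most abundant HIBADH rings begin at one left-hand site.

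Besides the leading rings, 4 made up at least 5% of the counts of their host. NECTIN3 had a ring of 3511 bases (chr13:148496646-148534946) with 15.3% of the counts of its host. TUT7 had an exon-intron ring of 670 bases (chr10:29037750-29039234) with 13.5% and a ring of 501 bases (chr10:29028959-29035802) with 8.97%. HIBADH had an exon-intron ring of 6178 bases (chr18:44996263-45020744) with 18.8%. A further HIBADH ring of 568 bases (chr18:44996263-45015134), with 2.98% of the counts of its host, enters below because it passed the test.

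Differences between groups were tested for circRNAs with edgeR's quasi-likelihood test with Benjamini-Hochberg adjustment over 9032 circRNAs, which 34 of the 59 entered (13 of NECTIN3, 10 of TUT7, 8 of HIBADH, 2 of PFKFB1 and the GSTO1 ring). The other 25 had too few counts. A circRNA was called where the adjusted p was below 0.05. Of the 34, 1 was called between Hezuo and Bama at room temperature, where 0.454% of all circRNAs tested were called, and 1 between the breeds averaged over temperatures, where 1.28% were called. Both were the HIBADH ring of 568 bases. The same comparisons had 6 and 12 of the 34 at an unadjusted p below 0.05, beside 717 and 1000 of the 9032.

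None of the 34 was called for cold in Bama pigs (0.155% of all circRNAs were), cold in Hezuo pigs (0.0886%), cold averaged over breeds (0.199%), Hezuo against Bama in the cold (0.421%) or the interaction of breed and cold (0.0886%). At an unadjusted p below 0.05 these 5 comparisons had 11, 2, 6, 5 and 7 of the 34. Over all 9032 circRNAs tested the numbers were 590, 523, 710, 767 and 512. The 34 hold the 5 most abundant circRNAs of the series and rings that share splice sites. Their numbers here and above were not tested against those of all circRNAs. Of the 34, DESeq2 called 0, 1, 1, 0 and 0. The circRNA called by DESeq2 in both was the GSTO1 ring. The median log2 fold change of the 34 was 0.11 for cold in Bama pigs and -0.12 for cold in Hezuo pigs, beside medians of -0.07 and 0 over all circRNAs.

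**Figure D2:**
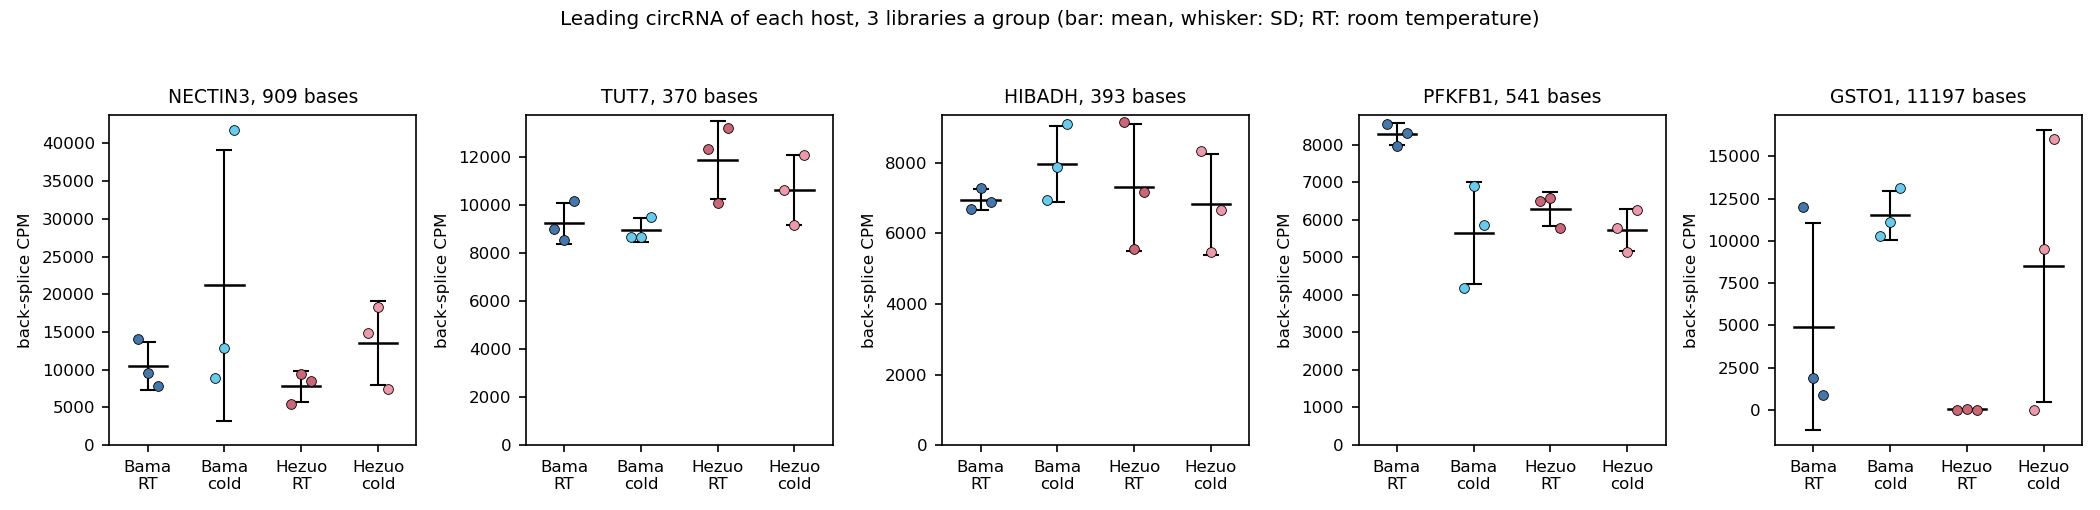
Level of the leading circRNA of each host in back-splice CPM (y axis, from 0 or just below) in the 4 groups (x axis), with 3 libraries a group as points, the mean as a bar and the SD as a whisker. Groups overlapped for NECTIN3 and HIBADH in each pair of neighbours by mean, Bama room temperature lay above the other groups for PFKFB1, and GSTO1 was near 0 in 4 libraries.

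The NECTIN3 ring was the most abundant circRNA of the series and varied widely between pigs of the same group. Its counts were 805, 457 and 508 in room-temperature Bama pigs, 309, 618 and 1967 in Bama pigs in the cold, 246, 390 and 359 in Hezuo pigs at room temperature and 597, 661 and 326 in Hezuo pigs in the cold. Bama cold replicate 3 stood far above the other 11 libraries, with 41826 back-splice CPM against 5475 to 18294, and the groups overlapped within each breed. Mean levels were 10496 ± 3220 CPM (SD, n = 3) and 21187 ± 17978 CPM (SD, n = 3) in Bama pigs at the higher and lower temperature, and 7794 ± 2068 CPM (SD, n = 3) and 13508 ± 5580 CPM (SD, n = 3) in Hezuo pigs. The log2 difference for cold averaged over breeds was 0.90 (SE 0.43, 95% interval -0.10 to 1.90, edgeR adjusted p = 0.692).

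The 2 main NECTIN3 rings share their upper end but not their spread. The ring of 3511 bases lay between 2039 and 4019 back-splice CPM in all 12 libraries, and its log2 difference for cold averaged over breeds was 0.18 (SE 0.18, edgeR adjusted p = 0.844). The leading ring took between 57.6% and 84.2% of the counts of its host. Its share was 5.83 percentage points higher in the cold (68.99% against 74.83%), with an exact two-sided permutation p of 0.155 and 0.4 after adjustment over 8 share tests.

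NECTIN3 gene counts were 9580, 7424 and 9657 in room-temperature Bama pigs, 4236, 6992 and 13083 in Bama pigs in the cold, 6531, 5497 and 6719 in Hezuo pigs at room temperature and 6777, 6164 and 5893 in Hezuo pigs in the cold. Bama cold replicate 3 was again the highest and Bama cold replicate 1 the lowest. The gene differed between cold and room temperature by a log2 of -0.04 (SE 0.18, 95% interval -0.47 to 0.39, edgeR adjusted p = 0.918). Across the 12 libraries, log2 levels of ring and gene had a Pearson r of 0.56 (permutation p = 0.0716, adjusted over 4 hosts 0.286) and a Spearman rho of 0.34 (permutation p = 0.278, adjusted 0.939). Within groups r was 0.78, and without Bama cold replicates 1 and 3 it was 0.08, so the relation rests on those pigs.

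The TUT7 ring was the steadiest of the 5. Its counts were 515, 407 and 658 in room-temperature Bama pigs, 300, 418 and 447 in Bama pigs in the cold, 553, 415 and 560 in Hezuo pigs at room temperature and 427, 331 and 533 in Hezuo pigs in the cold. Its SD over libraries was 0.22 on the log2 CPM scale, at position 104 of 112 circRNAs with a mean of at least 50 counts, whose median SD was 0.36. HIBADH (0.24), PFKFB1 (0.29), NECTIN3 (0.77) and GSTO1 (3.67) followed, and GSTO1 had the largest SD of the 112.

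TUT7 ring levels were 9229 ± 848 CPM (SD, n = 3) and 8946 ± 484 CPM (SD, n = 3) in Bama pigs at the higher and lower temperature, and 11853 ± 1622 CPM (SD, n = 3) and 10616 ± 1452 CPM (SD, n = 3) in Hezuo pigs. Averaged over temperatures, Hezuo differed from Bama by a log2 of 0.30 (SE 0.13, 95% interval 0.00 to 0.61), which was not called by edgeR (adjusted p = 0.335) and was called by DESeq2 (adjusted p = 0.00748). The range of Bama libraries overlapped that of Hezuo libraries at both temperatures.

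The TUT7 ring of 670 bases starts at the same site as the leading ring and ends 300 bases further on. Its level was 1399, 3347 and 2997 back-splice CPM in room-temperature Bama pigs, 2255, 1326 and 255.2 in Bama pigs in the cold, 2003, 1768 and 3158 in Hezuo pigs at room temperature and 1916, 913.3 and 882.7 in Hezuo pigs in the cold. The log2 difference for cold averaged over breeds was -0.96 (SE 0.44, 95% interval -1.98 to 0.05, edgeR adjusted p = 0.636). It passed the test when Bama cold replicate 1 was left out (-1.30, adjusted p = 0.000134) or Hezuo cold replicate 1 was left out (-1.23, adjusted p = 0.00548).

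The leading TUT7 ring took 76.55% of the counts of its host in the cold and 69.67% at room temperature, a difference of 6.87 percentage points with an exact two-sided permutation p of 0.045 and 0.18 after adjustment over 8 tests. TUT7 gene counts lay between 3136 and 5936 in the 12 libraries. The gene differed by a log2 of -0.11 for cold averaged over breeds (SE 0.13, edgeR adjusted p = 0.634) and of 0.13 between breeds (SE 0.13, edgeR adjusted p = 0.524).

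HIBADH was the host with differences that passed the test. The called ring of 568 bases had 52.5, 146.4 and 77.2 back-splice CPM in room-temperature Bama pigs, 202.3, 207.2 and 148.8 in Bama pigs in the cold, 400.6, 484.4 and 895.7 in Hezuo pigs at room temperature and 472.7, 110.7 and 520.6 in Hezuo pigs in the cold. At room temperature all 3 Hezuo libraries lay above all 3 Bama libraries, and in the cold Hezuo cold replicate 2 lay below all 3 Bama libraries. The ring was higher in Hezuo pigs at room temperature by a log2 of 2.68 (SE 0.56, edgeR adjusted p = 0.00103) and averaged over temperatures by 1.84 (SE 0.39, edgeR adjusted p = 0.00065).

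In the cold the difference between breeds in this ring was 0.99 (SE 0.55, edgeR adjusted p = 0.618), and the interaction of breed and cold was -1.69 (SE 0.79, edgeR adjusted p = 0.859). The ring is small in number, with a mean of 13.4 counts a library. With the presence of Y-linked RNA as a covariate, the log2 difference at room temperature was 2.94 (adjusted p = 0.923). Averaged over temperatures it was 2.01 (adjusted p = 0.467). No Bama library at room temperature holds Y-linked RNA, and every Hezuo library does. The adjustment thus rests on Bama cold replicate 2 against replicates 1 and 3, and it cannot separate breed from Y-linked RNA at room temperature. The call at room temperature was also lost without Bama room temperature replicate 1 (adjusted p = 0.055) or Hezuo room temperature replicate 3 (adjusted p = 0.145).

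The leading HIBADH ring did not follow. Its counts were 383, 349 and 446 in room-temperature Bama pigs, 240, 380 and 428 in Bama pigs in the cold, 412, 230 and 305 in Hezuo pigs at room temperature and 335, 198 and 295 in Hezuo pigs in the cold. In back-splice CPM all 4 groups overlapped. Averaged over temperatures it differed between breeds by a log2 of -0.08 (SE 0.14, 95% interval -0.40 to 0.25, edgeR adjusted p = 0.904). The difference between the 2 rings in their breed difference was not tested.

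The leading ring held 79.1% to 80.2% of the back-splice reads of HIBADH in Bama pigs at 23 °C and 73.4% to 78.7% at -15 °C, against 60.8% to 74.5% and 65.3% to 78.1% in Hezuo pigs. Averaged over temperatures the Hezuo minus Bama difference in its share was -9.79 percentage points (68.54% against 78.34%, exact two-sided permutation p = 0.015, adjusted over 8 tests 0.12). The ring of 6178 bases had 1130 to 1452 CPM in Bama pigs and 2092 to 2785 CPM in Hezuo pigs at room temperature, without overlap, and a log2 difference of 0.95 (SE 0.28, edgeR adjusted p = 0.11). In the cold its difference between breeds was -0.01 (SE 0.28, edgeR adjusted p = 1).

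Of the 5 host genes, tested with edgeR's quasi-likelihood test over 13532 genes, HIBADH alone was called, and in 1 of 7 comparisons, Hezuo against Bama averaged over temperatures, where 12% of all genes were called. HIBADH gene levels were 179.3, 271.1 and 221.5 CPM in room-temperature Bama pigs, 225.4, 297.5 and 231.2 in Bama pigs in the cold, 294.9, 296.0 and 390.7 in Hezuo pigs at room temperature and 346.4, 318.1 and 350.0 in Hezuo pigs in the cold. Breeds did not overlap at room temperature or in the cold, and Bama cold replicate 2 lay above the lowest Hezuo library at room temperature. The gene was higher in Hezuo pigs by a log2 of 0.49 (SE 0.13, 95% interval 0.19 to 0.79, edgeR adjusted p = 0.0333).

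This call was lost with Y-linked RNA as a covariate (log2 0.75, adjusted p = 0.173). The 2 Bama libraries with Y-linked RNA stood at 225.4 and 231.2 CPM, and Bama cold replicate 2, without it, at 297.5 CPM. The adjustment rests on these pigs of a single group, so the loss does not tell breed from Y-linked RNA. The call was also lost on leaving out replicate 1 or replicate 3 of any of the 4 groups. The summed hepatocyte markers, in which ALB weighs heavily, were higher in Hezuo than in Bama pigs at room temperature without overlap and overlapped in the cold. Their part in the HIBADH difference was not tested.

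No host gene was called for cold in Bama pigs (0.924% of all genes were), cold in Hezuo pigs (0.281%), cold averaged (3.89%), Hezuo against Bama at room temperature (1.08%) or in the cold (2.76%), or the interaction of breed and cold (0.00739%). At an unadjusted p below 0.05 these comparisons had 0, 0, 0, 1, 1 and 0 of the 5 genes. Over all 13532 genes tested the numbers were 2137, 2105, 3182, 2683, 2852 and 1085. Of the 5 genes, DESeq2 called 0 in each. On the scale of the deposited FPKM, which corrects for gene length, HIBADH (mean 147) and NECTIN3 (138) were the most abundant host genes, followed by TUT7 (29.2), PFKFB1 (16.0) and GSTO1 (7.02).

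**Figure D3:**
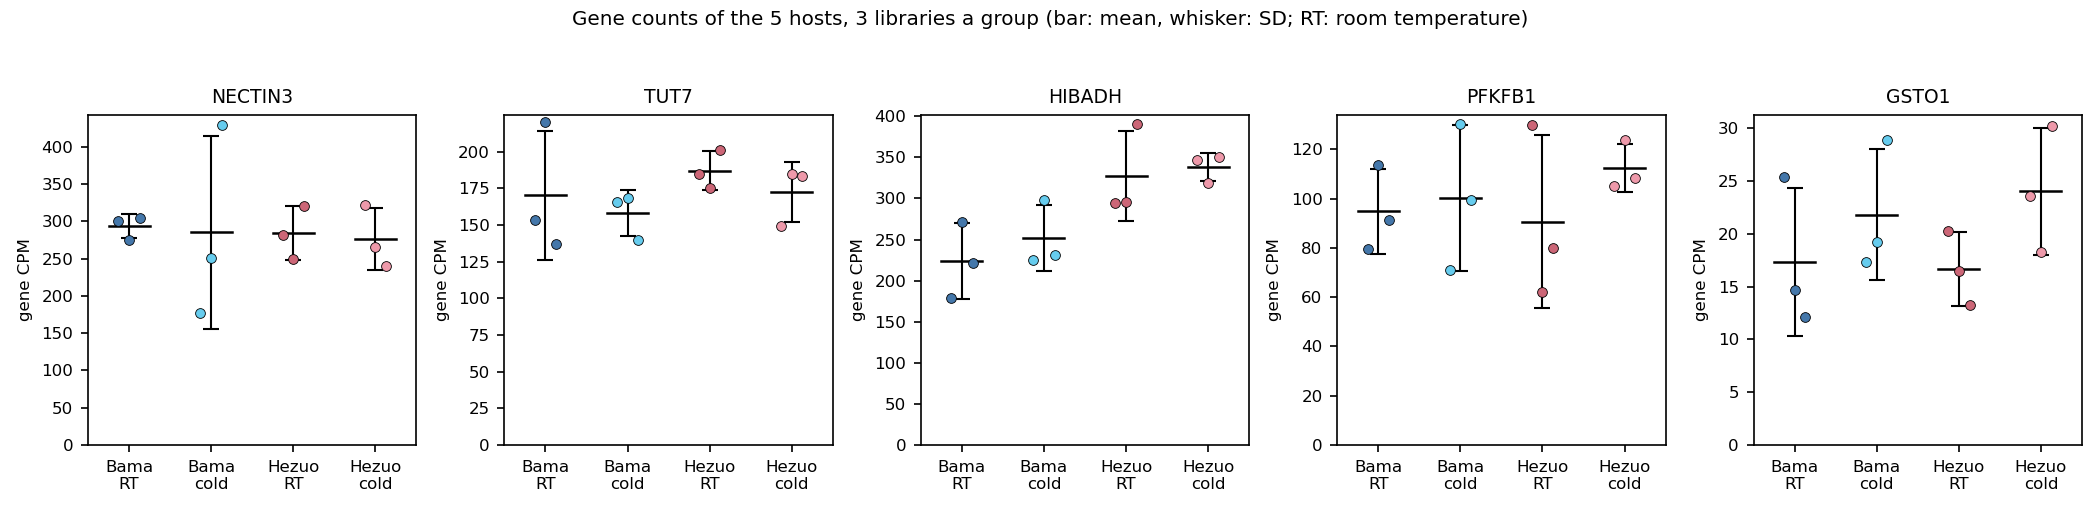
Gene level of each host in CPM (y axis, from 0) in the 4 groups (x axis), with 3 libraries a group as points, the mean as a bar and the SD as a whisker. The 6 Hezuo libraries lie between 294.9 and 390.7 CPM for HIBADH and the 6 Bama libraries between 179.3 and 297.5, while for the other 4 genes the 2 breeds overlap at each temperature and the 2 temperatures overlap in each breed.

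The PFKFB1 ring was highest in Bama pigs at room temperature. Its counts were 489, 381 and 538 there, 145, 333 and 276 in Bama pigs in the cold, 292, 272 and 245 in Hezuo pigs at room temperature and 232, 186 and 277 in Hezuo pigs in the cold. In back-splice CPM, Bama pigs at room temperature (7970 to 8553) did not overlap Bama pigs in the cold (4191 to 6899) or Hezuo pigs at room temperature (5775 to 6588). The log2 difference for cold in Bama pigs was -0.55 (SE 0.21, 95% interval -1.02 to -0.07), which was not called (edgeR adjusted p = 0.678), and in Hezuo pigs it was -0.13 (SE 0.21, edgeR adjusted p = 0.986).

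PFKFB1 lies on the X chromosome. The 4 libraries without DDX3Y RNA had the 4 highest levels of the ring (6899 to 8553 CPM), above the 8 libraries with it (4191 to 6588 CPM). With the presence of Y-linked RNA as a covariate, the log2 difference for cold in Bama pigs was -0.26 (SE 0.29, edgeR adjusted p = 0.911). All Bama pigs at room temperature lacked this RNA, so the adjustment rests on Bama cold replicate 2 against replicates 1 and 3. The PFKFB1 gene overlapped between these sets, at 79.5 to 130.2 CPM in the 4 libraries without DDX3Y RNA and 62.1 to 129.7 CPM in the 8 with it. No test was made between these sets of libraries, which were seen in the data and are not groups of the study.

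PFKFB1 gene counts were 2530, 3067 and 2890 in room-temperature Bama pigs, 1707, 3623 and 3034 in Bama pigs in the cold, 3007, 1369 and 1674 in Hezuo pigs at room temperature and 2216, 2869 and 2658 in Hezuo pigs in the cold. In CPM all groups overlapped, and the gene differed by a log2 of 0.20 for cold averaged over breeds (SE 0.19, edgeR adjusted p = 0.575). No relation of gene and ring was detected across libraries (Pearson r = 0.11, permutation p = 0.735, adjusted over 4 hosts 0.925, and Spearman rho = 0.03, permutation p = 0.939, adjusted 0.939). Without Bama cold replicate 1 and Hezuo room temperature replicate 2 r was -0.29, and within groups it was 0.44. For TUT7 r was 0.19 (rho 0.03) and for HIBADH -0.03 (rho -0.05), with adjusted permutation p of 0.925 for r and 0.939 for rho in both, and GSTO1 was left out because its libraries fell into separate clusters.

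The GSTO1 ring was present at high counts in some pigs and at or near 0 in others. Its counts were 685, 91 and 58 in room-temperature Bama pigs, 355, 538 and 617 in Bama pigs in the cold, 0, 2 and 0 in Hezuo pigs at room temperature and 0, 343 and 708 in Hezuo pigs in the cold. In 6 libraries it took 0.854% to 1.36% of all back-splice reads, in 2 Bama libraries at room temperature 0.167% (95% Clopper-Pearson interval 0.135% to 0.205%) and 0.0767% (0.0582% to 0.0991%), and in the library with 2 counts 0.00434% (0.000526% to 0.0157%). The 3 libraries at 0 allow a share of up to 0.00592%, 0.00639% and 0.00705% at 3 counts of their totals. These intervals and limits cover counting error only.

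At room temperature all 3 Hezuo libraries lay below all 3 Bama libraries, and in the cold the ranges overlapped, with Hezuo cold replicate 1 at 0 and Hezuo cold replicate 3 the highest of the 6. Pooled over libraries, the rate at room temperature was 302 times higher in Bama than in Hezuo pigs (834 against 2 counts, 95% interval from counting error alone 83.4 to 2500), and in Hezuo pigs it was 560 times higher in the cold than at room temperature (1051 against 2 counts, 155 to 4628). Both ratios rest on few libraries. Bama room temperature replicate 1 held 685 of the 834 counts, and without it the ratio between breeds was 82.3. It was 196 without Hezuo room temperature replicate 1 and 455 without Bama room temperature replicate 3. The ratio for cold in Hezuo pigs was 298 without Hezuo cold replicate 3, which held 708 of the 1051 counts, and 362 without Hezuo room temperature replicate 1. Hezuo room temperature replicate 2 held both counts of its group, and without it the rate was at least 137 times higher in Bama pigs and at least 254 times higher in the cold, against a limit of 3 counts over the group. The edgeR test, which uses the spread between pigs, did not call either difference (adjusted p = 0.529 and 0.827), while DESeq2 called both (adjusted p = 0.0115 and 0.0325). The fitted log2 fold changes of a ring at 0 depend on the prior count and are not given.

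GSTO1 gene levels varied less than the ring and followed it in part. The gene counts were 806, 395 and 384 in room-temperature Bama pigs, 416, 536 and 880 in Bama pigs in the cold, 470, 364 and 277 in Hezuo pigs at room temperature and 496, 423 and 741 in Hezuo pigs in the cold. In CPM all groups overlapped, and the log2 difference was 0.43 for cold averaged over breeds (SE 0.21, 95% interval -0.06 to 0.91, edgeR adjusted p = 0.245) and -0.06 between breeds at room temperature (SE 0.30, 95% interval -0.75 to 0.63, edgeR adjusted p = 0.942). The 3 highest gene levels, 30.2, 28.9 and 25.3 CPM, were in the 3 libraries with the most back-splice counts (708, 617 and 685). In Bama pigs at room temperature the gene stood at 25.3 CPM beside 685 back-splice counts and at 14.7 and 12.1 CPM beside 91 and 58. Other libraries did not follow this order: Hezuo cold replicate 1 had 23.6 CPM of the gene and 0 back-splice counts, and Hezuo cold replicate 2 had 18.2 CPM and 343.

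The number of back-splice reads of a host per 1000 gene counts compares ring and gene within a library, although reads from inside a ring may also be counted for the gene. Pooled over libraries it was 109 for NECTIN3, 147 for TUT7, 63.2 for HIBADH, 122 for PFKFB1 and 549 for GSTO1, beside a median of 19.3 over 960 hosts with at least 10 mean counts of each kind. GSTO1 ranked at position 3 of the 960, and its single libraries held 849.9, 230.4 and 151.0 in room-temperature Bama pigs, 853.4, 1003.7 and 701.1 in Bama pigs in the cold, 0, 5.5 and 0 in Hezuo pigs at room temperature and 0, 810.9 and 955.5 in Hezuo pigs in the cold. In Bama cold replicate 2 the ring therefore had more back-splice reads than the gene had counts. Under the assumption on assembly made above, this ring begins in neighbouring genes and ends in GSTO1. How much of it lies in GSTO1 was not measured. Its ratio and rank thus set it beside the counts of a gene that does not contain all of it. High ratios follow in part from the choice of hosts by their back-splice counts.

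For PFKFB1 this ratio was 194.5, 127.2 and 189.3 in room-temperature Bama pigs, 84.9, 93.6 and 92.3 in Bama pigs in the cold, 97.8, 206.0 and 150.5 in Hezuo pigs at room temperature and 106.0, 65.9 and 105.7 in Hezuo pigs in the cold. The log2 ratio for cold averaged over breeds was -0.78 (SE 0.23, limma adjusted p = 0.168), and it passed only where the 960 hosts were limited to those with a mean of at least 50 back-splice counts (adjusted p = 0.0189). NECTIN3 had a log2 ratio for cold of 0.50 (SE 0.22, limma adjusted p = 0.297), TUT7 of -0.34 (SE 0.22, limma adjusted p = 0.478) and HIBADH of -0.30 (SE 0.20, limma adjusted p = 0.485), beside a median of -0.26 over the 960 hosts. No host ratio was called in any of 7 comparisons, where 0.625% of all hosts were called between breeds averaged over temperatures and 0.0% in the other 6. At an unadjusted p below 0.05 limma had 1 of the 5 for cold in Bama pigs, 2 for cold averaged, 1 between breeds at room temperature, 1 between breeds averaged and 0 in the other 3. Of the 960 hosts it had, in the same order, 131, 150, 77 and 125, and 55 to 118 in the other 3. No other tool was run on ratios.

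**Figure D4:**
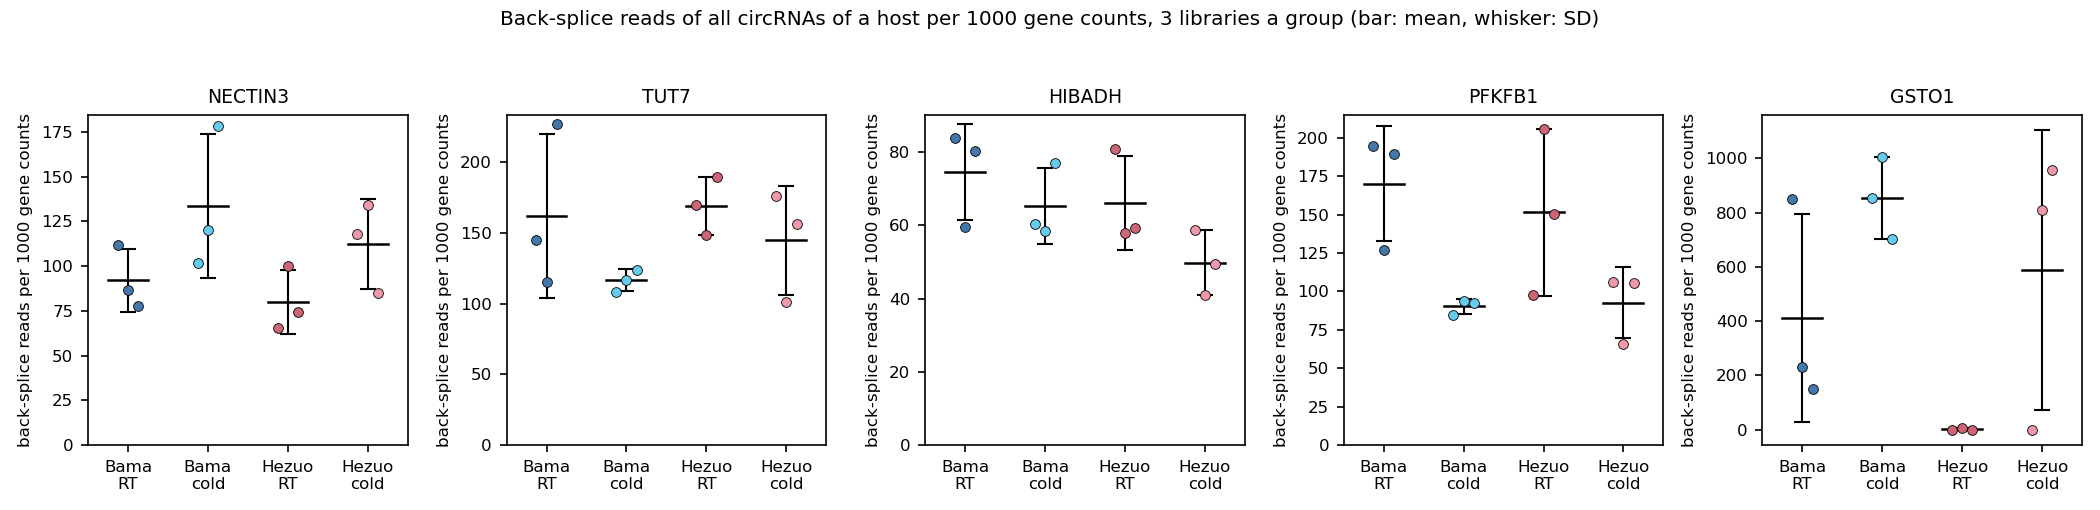
Back-splice reads of all circRNAs of a host per 1000 gene counts (y axis, from 0 or just below) in the 4 groups (x axis), with 3 libraries a group as points, the mean as a bar and the SD as a whisker. PFKFB1 lies at 127.2 to 194.5 at room temperature against 84.9 to 93.6 in the cold in Bama pigs, and GSTO1 at or near 0 in 4 Hezuo libraries and up to 1003.7 in Bama pigs in the cold.

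With all rings of a host summed, no host was called by edgeR's quasi-likelihood test over 3386 hosts. The share of all hosts called was 0.561% for cold in Bama pigs, 0.148% for cold in Hezuo pigs, 0.591% for cold averaged, 0.354% and 0.738% between breeds at room temperature and in the cold, 1.3% between breeds averaged and 0.0591% for the interaction of breed and cold. At an unadjusted p below 0.05 these comparisons had 1, 1, 2, 2, 0, 2 and 1 of the 5 hosts. Over all 3386 hosts the numbers were 266, 196, 294, 273, 299, 362 and 203. Of the 5 hosts, DESeq2 called GSTO1 for cold in Hezuo pigs, for cold averaged and between breeds at room temperature. Scaled by the gene counts of each library in place of the back-splice counts, summed PFKFB1 rings were called for cold in Bama pigs (log2 -0.78, adjusted p = 0.0364) and for cold averaged (log2 -0.53, adjusted p = 0.0344). That scaling moved the median log2 difference of all circRNAs for cold in Bama pigs by -0.23 and for cold averaged by -0.18.

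**Figure D5:**
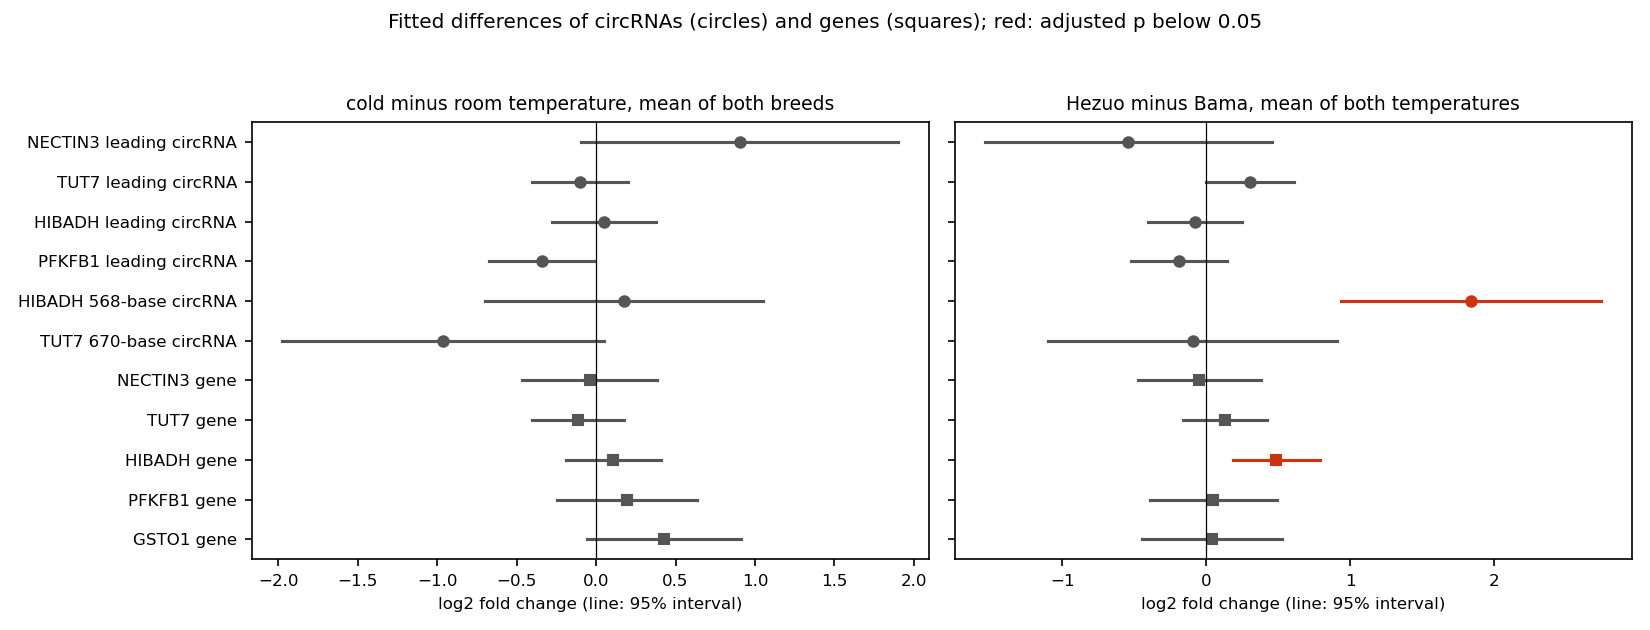
Fitted log2 fold changes (x axis) with 95% intervals on 8 residual degrees of freedom for 4 leading circRNAs, 2 further circRNAs (circles) and the 5 host genes (squares), for cold against room temperature on the left and Hezuo against Bama on the right. Only the HIBADH ring of 568 bases (1.84) and the HIBADH gene (0.49) were called, both between breeds, and GSTO1's ring is left out because it was at 0 in 3 libraries.

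The genes around the 5 hosts were counted in lists of the pathways they belong to, for cold averaged over breeds and for Hezuo against Bama averaged over temperatures. Over all genes, 1.95% were called higher and 1.94% lower in the cold, and 6.1% were called higher and 5.87% lower in Hezuo pigs. In valine and branched-chain amino acid breakdown, the pathway of HIBADH, 6 of 23 genes were higher in Hezuo pigs and 0 lower, with a median log2 difference of 0.29 beside 0.00 over all genes. They included MCCC2 of leucine breakdown (0.93, SE 0.15, edgeR adjusted p = 0.00564), ALDH6A1, the enzyme that follows HIBADH (0.69, SE 0.14, edgeR adjusted p = 0.0131), and ECHS1 (0.53, SE 0.12, edgeR adjusted p = 0.0205). The summed hepatocyte markers, in which ALB weighs heavily, were higher in Hezuo than in Bama pigs at room temperature without overlap (169886 to 189185 against 125282 to 142680 CPM). They overlapped in the cold (82645 to 157538 against 47237 to 109951 CPM). Their part in the breed differences of this list and of the lists around PFKFB1 and GSTO1 was not tested. In the cold 1 was higher, PCCA, a subunit of propionyl-CoA carboxylase (0.61, SE 0.13, edgeR adjusted p = 0.0321), and 0 were lower.

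In the list around PFKFB1, of fructose 2,6-bisphosphate, glycolysis and gluconeogenesis, 4 of 23 genes were higher in Hezuo pigs and 1 was lower. PFKL, the liver phosphofructokinase, was higher by 0.50 (SE 0.11, edgeR adjusted p = 0.0193), and FBP1, the fructose bisphosphatase of gluconeogenesis, by 0.78 (SE 0.18, edgeR adjusted p = 0.0193). PFKP, the platelet-type phosphofructokinase, was lower by a log2 of -1.0 (SE 0.24, edgeR adjusted p = 0.0254). In the cold 1 was higher, TIGAR, which removes fructose 2,6-bisphosphate (0.77, SE 0.15, edgeR adjusted p = 0.022), and 0 were lower.

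In the glutathione list around GSTO1, 5 of 17 genes were higher in Hezuo pigs and 0 lower, among them the transferases GSTA4 (1.07, SE 0.17, edgeR adjusted p = 0.00564) and GSTZ1 (0.61, SE 0.11, edgeR adjusted p = 0.0091) and the microsomal transferase MGST3 (0.97, SE 0.15, edgeR adjusted p = 0.00473). In the cold MGST3 was lower (-0.94, SE 0.15, edgeR adjusted p = 0.012), and GCLM, a subunit of the enzyme that starts glutathione synthesis, was higher (0.81, SE 0.18, edgeR adjusted p = 0.0365).

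In the list of nectin adhesion around NECTIN3, 1 of 18 genes was higher in Hezuo pigs, NECTIN2 (0.43, SE 0.12, edgeR adjusted p = 0.0368), and 2 were lower, the lymphocyte receptors of nectins CD226 (-1.73, SE 0.26, edgeR adjusted p = 0.0044) and TIGIT (-2.05, SE 0.41, edgeR adjusted p = 0.0126). The 6 markers of T and NK cells, all above 1 CPM in the table, had a summed level of 81.4 to 215.0 CPM in Bama and 43.0 to 69.1 CPM in Hezuo libraries, and their part in these 2 differences was not tested. In the cold CDH1, the E-cadherin of epithelial junctions, was lower (-0.85, SE 0.18, edgeR adjusted p = 0.0306).

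In the list of RNA uridylation and decay around TUT7, 1 of 18 genes was higher in Hezuo pigs, DICER1 (0.30, SE 0.08, edgeR adjusted p = 0.035), and 3 were lower, among them the exonuclease XRN1 (-0.36, SE 0.08, edgeR adjusted p = 0.0196) and the helicase MOV10 (-0.58, SE 0.14, edgeR adjusted p = 0.0205). In the cold 1 was higher, the RNA tail polymerase TENT2 (0.41, SE 0.10, edgeR adjusted p = 0.042), and 0 were lower.

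The circRNAs whose log2 CPM over the 12 libraries was most like that of each leading ring were also named, as a description of libraries that share their depth. Among about 110 circRNAs of other hosts with a mean of at least 50 counts, Pearson's r was highest between NECTIN3 and NDFIP2 (0.77), TUT7 and PICALM (0.79), HIBADH and RFC1 (0.65) and GSTO1 and STT3B (0.79), and for PFKFB1 with a ring of 667 bases whose host has no symbol (0.79). Among 7502 genes with a mean of at least 10 CPM, it was highest between NECTIN3 and ALDH1A1 (0.94), TUT7 and KCTD6 (0.91), HIBADH and RABGGTB (0.93), PFKFB1 and ZNF622 (0.81) and GSTO1 and SND1 (0.93). The r of the GSTO1 ring is over libraries in separate clusters, for which that ring was left out of the comparison with its gene.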

How the data were processed

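Gene values were estimated counts per gene, deposited by the authors, beside FPKM values that the authors deposited. CircRNA values were counts of back-splice reads, deposited by the authors, beside RPM values that the authors deposited. Annotation columns that the authors deposited (coordinates, strand, class and length) served to find and describe circRNAs. Per the labels' protocols, total RNA from TRIzol extraction lost its ribosomal RNA, random primers started the cDNA, and digestion of the second strand kept the strand. The submitters' processing notes name fastp. Aligner, counter, circRNA caller and build: not given in the sources used here.

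Estimated counts were rounded (9.48% of nonzero values were fractional). edgeR 4.0.16 in R 4.3.3 fitted 4 groups over 12 libraries with TMM scaling and a robust quasi-likelihood test. circRNAs needed 2 counts in 3 libraries and 10 in all, and genes passed filterByExpr with a minimum count of 10. The SE is the absolute log2 fold change over the square root of F, and 95% intervals use 8 residual degrees of freedom. Ratios, log2((back-splice + 0.5)/(gene + 0.5)), were tested with limma 3.58.1, and shares of the leading ring by exact permutation within strata (400 arrangements, smallest p 0.005). Calls used Benjamini-Hochberg adjusted p below 0.05. DESeq2 1.42.0 was an alternative. The edgeR and limma tests were checked on simulated data in which only differences for cold averaged over breeds were planted. That check did not cover the breed comparisons, and its outcome is not reported here.

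Pigs numbered 1 to 3 within a group are separate animals. The hosts, gene lists and tests were chosen with earlier results of these data known. Named besides the leading rings are rings with at least 5% of the counts of a host or called, and up to 4 called genes per list and comparison by smallest adjusted p, of which some are not reported here. The file named 14940 gene rows, Ensembl names were added for 889, and 5340 had no name. No pair of replicates of a group agreed within sampling noise, so none was merged. No base sequences are printed.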

Additional observations from a re-analysis of the deposited data

How the results depend on the processing

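Alternatives were RLE scaling, DESeq2, no filter on low counts, the compared groups alone, a replicate block, Y-linked RNA as a covariate, gene library sizes, other ratio settings, and leaving out each library. Under alternatives that keep all libraries, 155 counts of calls stayed within 1.5 times the main count and 15 did not, and with a library left out 315 did and 21 did not. Most main counts were 0, and a count that stayed at 0 is among those that stayed. These numbers therefore do not measure how stable the calls themselves were. Among the 34 circRNAs, calls between breeds at room temperature numbered 3 with DESeq2 (the HIBADH rings of 568 and 6178 bases and the GSTO1 ring), 2 with the compared groups alone, 0 with the Y-linked covariate and 0 to 1 with a library left out. Between breeds averaged they numbered 3 with DESeq2 and 1 to 2 with a library left out (2 without Bama cold replicate 2, which added the HIBADH ring of 14948 bases). With the Y-linked covariate the 1 call was that same ring, not the ring of 568 bases. For cold averaged DESeq2 gave 1 and leaving out a library 0 to 1 (without Bama cold replicate 1 or Hezuo cold replicate 1 the TUT7 ring of 670 bases, and without Hezuo cold replicate 3 the NECTIN3 ring of 224 bases). For cold in Bama leaving out a library gave 0 to 1, and for cold in Hezuo DESeq2 gave 1 and the compared groups alone 1 (the leading NECTIN3 ring, log2 0.86, adjusted p = 0.00803). Of the host genes between breeds averaged, 0 were called with the Y-linked covariate and 0 to 1 with a library left out. Of the ratios, 1 was called with the compared groups alone between breeds at room temperature (GSTO1) and 1 for cold averaged with a mean of at least 50 (PFKFB1). Leaving out Hezuo cold replicate 1 turned 0 into 1 called ratio, GSTO1, between breeds at room temperature and averaged, for cold averaged, for cold in Hezuo and for the interaction of breed and cold, so each ranged from 0 to 1. Of the summed rings, DESeq2 called 1 between breeds at room temperature, 1 for cold averaged and 1 for cold in Hezuo, gene library sizes called 1 for cold averaged and 1 for cold in Bama, and leaving out a library gave 0 to 1 for cold in Hezuo (NECTIN3, without Bama cold replicate 3). The cause of these moves was not tested. The pooled GSTO1 rates without single libraries were computed after seeing the data. The difference in the share of the leading HIBADH ring for cold averaged ranged from -0.729 to 3.15 percentage points with a library left out.

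The labels use the same pig numbers in each group and state no pairing. Deviations of same-numbered pigs from their group means correlated at -0.20 to 0.15 over genes and at -0.03 to 0.03 over circRNAs. Over genes 3 of 18 such pairs were above 0.1, beside 8 of 36 pairs with different numbers. The pairs include pigs of different breeds, so a matching of pigs by number within a breed cannot be told from these values. With a replicate block the HIBADH gene differed by a log2 of 0.50 between breeds averaged (adjusted p = 0.0419) and the ring of 568 bases by 1.78 (adjusted p = 0.00246), and the calls among the members did not change. With 39117 to 75616 back-splice counts, 25 of the 59 circRNAs were too rare to test.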
